A study of Mus musculus with 10 samples.

Results

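Nuclear receptors are transcription factors whose activity is set by small lipophilic molecules or, in the orphan members, by their own abundance and partners. The data described here are the transcript levels of 37 nuclear receptor genes in mouse liver. A list of 38 symbols was matched to array features (transcript clusters) annotated to that symbol alone, and where several matched a gene, the brightest over all 10 arrays was kept. Of the 38, 37 were found among 22180 named genes, and Nr1h2, which encodes LXR beta, was not measured here. The members fall into 10 groups by role: retinoid X partners, fatty acid sensors, sterol and bile acid receptors, xenobiotic receptors, HNF4 factors, hormone receptors, retinoic acid receptors, estrogen-related receptors, NR4A receptors and other orphans.

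The livers came from fasted male mice that had received an adeno-associated virus about 2 weeks earlier, with the hepatocyte-selective TBG promoter driving either green fluorescent protein (GFP, the control vector) or FST288, an isoform of the activin-binding protein follistatin. Wild-type animals fed a high-fat diet (HFD) carried GFP (n = 3) or FST288 (n = 3), and LTKO animals carried GFP (n = 2) or FST288 (n = 2), which makes 4 groups. The labels give neither the meaning of LTKO nor the Cre line, the age or the diet of these mice; as background, the abbreviation is used for livers lacking Irs1, Irs2 and Foxo1, the insulin receptor substrates and a transcription factor that insulin restrains. Genotype and diet therefore cannot be told apart in any LTKO to HFD difference below. Nothing in the labels states that the arrays of a group were separate animals, so each p-value is relative to a spread between arrays that may be technical only.

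As background, most receptors of this family bind DNA at copies of the hexamer AGGTCA, many as a heterodimer with a retinoid X receptor (RXR). In hepatocytes HNF4 alpha maintains the differentiated programme, PPAR alpha turns on fatty acid oxidation during fasting, LXR and FXR sense oxysterols and bile acids, and CAR and PXR sense foreign compounds and induce the enzymes that clear them. Glucocorticoid and thyroid hormone receptors couple the liver to systemic hormones. Their transcript levels are only one layer of control, since ligand, partner and coregulator supply also set their output.

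The 250 bases before an annotated start are shown for the 5 receptor genes that results below turn on: those whose change between LTKO and HFD livers with GFP passed under every alternative, and Nr5a2, which was called with both vectors. They are from RefSeq, build GRCm38.p6, 5′ to 3′ on the gene's strand, in lower case, with any AGGTCA on either strand in capitals. The windows are chr1:171213720-171213969 (plus strand) for Nr1i3, chr2:163506607-163506856 and chr2:163546905-163547154 (plus) for the 2 starts of Hnf4a, chr8:76902080-76902329 (plus) for Nr3c2, chr14:17660710-17660959 (plus) for the upstream start of Thrb and chr1:136960449-136960698 (minus) for the upstream start of Nr5a2.
Nr1i3: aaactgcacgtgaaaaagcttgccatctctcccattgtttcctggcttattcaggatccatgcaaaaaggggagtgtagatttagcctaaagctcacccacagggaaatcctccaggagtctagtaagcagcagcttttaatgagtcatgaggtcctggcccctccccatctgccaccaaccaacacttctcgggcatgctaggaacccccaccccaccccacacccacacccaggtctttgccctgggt
Hnf4a upstream start: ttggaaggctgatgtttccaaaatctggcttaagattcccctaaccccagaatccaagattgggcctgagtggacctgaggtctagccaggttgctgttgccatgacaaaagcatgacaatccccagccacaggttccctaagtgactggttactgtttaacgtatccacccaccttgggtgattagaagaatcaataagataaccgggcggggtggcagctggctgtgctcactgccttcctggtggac
Hnf4a downstream start: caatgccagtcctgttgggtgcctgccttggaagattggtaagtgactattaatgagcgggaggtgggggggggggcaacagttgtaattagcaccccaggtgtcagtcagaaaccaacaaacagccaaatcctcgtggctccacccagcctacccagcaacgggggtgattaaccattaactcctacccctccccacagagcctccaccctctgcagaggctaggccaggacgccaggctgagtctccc
Nr3c2: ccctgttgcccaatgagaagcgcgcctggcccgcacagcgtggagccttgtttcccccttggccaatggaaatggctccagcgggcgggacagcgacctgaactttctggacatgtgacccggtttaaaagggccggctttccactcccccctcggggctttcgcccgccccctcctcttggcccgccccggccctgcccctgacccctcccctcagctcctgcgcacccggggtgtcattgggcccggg
Thrb upstream start: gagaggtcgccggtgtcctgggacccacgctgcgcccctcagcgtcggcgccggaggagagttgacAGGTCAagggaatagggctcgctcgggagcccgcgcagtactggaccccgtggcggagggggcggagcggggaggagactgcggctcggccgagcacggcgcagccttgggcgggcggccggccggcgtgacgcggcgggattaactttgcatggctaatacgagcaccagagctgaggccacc
Nr5a2 upstream start: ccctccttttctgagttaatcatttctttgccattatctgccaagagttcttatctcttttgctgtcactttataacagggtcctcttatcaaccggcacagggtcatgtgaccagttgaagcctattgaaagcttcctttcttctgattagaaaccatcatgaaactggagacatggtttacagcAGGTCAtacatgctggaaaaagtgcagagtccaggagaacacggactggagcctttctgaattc
Windows were on hand for 34 of the 37 members, 54 windows in all. The half-site AGGTCA, searched on both strands, was in 10 of the 54 (9 members), and in 14.0% of 32851 windows of the same length over all genes. Among those printed it lay 64 to 59 bases before the upstream start of Nr5a2 and 184 to 179 bases before that of Thrb. The windows of the downstream starts of Nr5a2 and Thrb, not printed, held no AGGTCA. The longer motifs TCAAGGTCA, which contains AGGTCA and is the extended site of NR5A and estrogen-related receptors, and CAAAGTCCA, an HNF4 site, were in 0 member windows and in 0.387% and 0.384% of all windows. The forkhead motif TGTTTAC was in the windows of Nr2f1 and Rxrb and in 3.17% of all windows. A match is a run of letters and was not tested as a binding site.

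Values are log2 expression on the deposited scale. Fst itself rose with the FST288 vector, by 1.08 in HFD and 1.45 in LTKO livers, and Irs1, Irs2 and Foxo1 were lower in LTKO than HFD livers with GFP by log2 changes of -1.77, -1.21 and -1.68 (adjusted p at most 0.0307 for each of these, limma). Of 9 measured hepatocyte markers, 8 had means of 7.51 or more, while the feature of Ass1, a urea cycle enzyme, was dim on all arrays. Pancreatic acinar markers stood apart on HFD FST288 replicates 2 and 3, where 8 of 9 lay above all other arrays (medians 8.29 and 7.32, against 2.31 to 2.54 elsewhere). Macrophage markers stood apart on LTKO FST288 replicate 2, where 10 of 10 lay above all other arrays (median 7.36, against 5.59 to 6.08 elsewhere). In bulk liver, fewer cells of a type and less RNA per cell cannot be told apart. The plot of member values by array shows each receptor relative to its mean in the HFD GFP arrays.

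**Figure D1:**
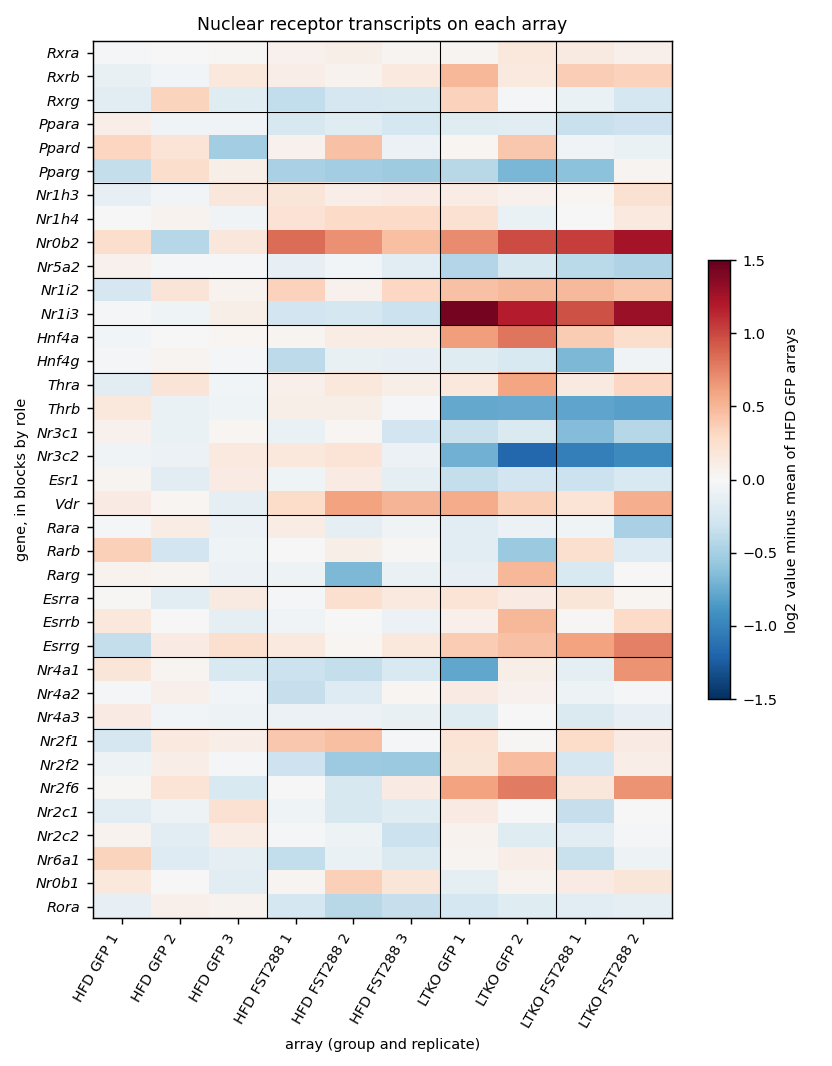
Each row is 1 of the 37 nuclear receptor genes, in blocks by role, and each column is 1 of the 10 arrays. The colour is the log2 value minus that gene's mean over the 3 HFD GFP arrays. Nr1i3 and Hnf4a are high in the 4 LTKO arrays and Nr3c2 and Thrb are low in them, while Rxra differs little between any arrays.

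With the GFP vector, 8 of 37 members differed between LTKO and HFD livers at an adjusted p below 0.05 (limma, Benjamini-Hochberg over 22180 genes), 5 higher in LTKO and 3 lower. That is 21.6% of members, beside 13.1% of all genes. The median absolute log2 change was 0.271 over the members and 0.173 over all genes, and the median signed change was 0.09 against 0.01. With the FST288 vector, 6 of 37 differed, 2 higher and 4 lower, 16.2% beside 10.3% of all genes. The median absolute change there was 0.188 over the members and 0.151 over all genes. The 2 comparisons use different arrays and share 1 estimate of the spread. All LTKO arrays lay above all HFD arrays for 4 members and below them for 4, beside 13.3% of all genes separated either way. Nr1i3, Nr3c2, Thrb and Nr5a2 were called in both, which is 4 of the 8 and 4 of the 6, and 27 members were called in neither. In the FST288 comparison 8 of 10 macrophage markers were called higher in LTKO livers and 3 of 9 acinar markers lower, and calls lost with the macrophage or acinar marker level as a covariate, or without both acinar-high arrays, are given beside the receptors.

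The xenobiotic receptors carried the largest rise among the members. Nr1i3 encodes CAR, the receptor through which phenobarbital-like compounds induce drug metabolism. Its log2 values were 7.72, 7.68 and 7.84 in HFD livers with GFP, 7.47, 7.49 and 7.43 in HFD livers with FST288, 9.19 and 8.93 in LTKO livers with GFP, and 8.70 and 9.05 in LTKO livers with FST288. All 4 LTKO arrays lay above all 6 HFD arrays, with a gap wider than the spread inside any group. The rise was 1.31 ± 0.11 (SE) with GFP, 2.48-fold, adjusted p = 4.47e-06, and 1.41 ± 0.11 with FST288, 2.66-fold, adjusted p = 2.06e-06 (limma). Nr1i2 encodes PXR, which senses steroids, bile acids and many drugs. Nr1i2 read 6.55, 7.01 and 6.87 in HFD GFP, 7.16, 6.87 and 7.12 in HFD FST288, 7.25 and 7.29 in LTKO GFP, and 7.29 and 7.22 in LTKO FST288. The 4 LTKO arrays again lay above all HFD arrays, though HFD FST288 replicate 1 came close to them. With GFP the rise was 0.46 ± 0.13, 1.38-fold, adjusted p = 0.0337, and it did not pass (adjusted p from 0.0596 to 0.143) without any 1 of HFD GFP replicates 1 and 3 or either LTKO GFP array. It was also lost without both acinar-high arrays, which are in neither group but add to the shared spread (adjusted p = 0.0513), with no intensity trend (0.0621), with all features tested (0.0905) and with the 2 groups alone (0.0562). With FST288 the change of Nr1i2 was 0.20 (95% interval -0.08 to 0.49, adjusted p = 0.443).

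Hnf4a, whose product is the receptor most closely tied to hepatocyte identity, rose in LTKO livers with GFP. Hnf4a values were 9.19, 9.23 and 9.26 in HFD GFP, 9.27, 9.34 and 9.34 in HFD FST288, 9.85 and 10.03 in LTKO GFP, and 9.61 and 9.50 in LTKO FST288. The 6 HFD arrays lay close together, the LTKO FST288 arrays lay above them, and the LTKO GFP arrays lay higher still, with no overlap between these 3 levels. The difference between LTKO and HFD was 0.71 ± 0.08 with GFP (1.64-fold, adjusted p = 3.71e-05), and 0.24 with FST288 (95% interval 0.07 to 0.41, adjusted p = 0.0801, not called). The array feature does not tell apart transcripts from the upstream and downstream starts shown above. Its paralogue Hnf4g had values from 2.07 to 2.79 on all arrays and no called change.

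Among the sterol and bile acid receptors, Nr0b2 rose and Nr5a2 fell in LTKO livers with GFP. Nr0b2 encodes SHP, a receptor without a DNA-binding domain that FXR induces and that represses bile acid synthesis genes. Nr0b2 was at 4.72, 4.04 and 4.63 in HFD GFP, 5.30, 5.15 and 4.92 in HFD FST288, 5.18 and 5.45 in LTKO GFP, and 5.50 and 5.72 in LTKO FST288. The 3 HFD GFP arrays were the lowest of the 10, and the HFD FST288 and LTKO GFP arrays overlapped each other. Its rise in LTKO with GFP was 0.85 ± 0.19, 1.80-fold, adjusted p = 0.00988, and 0.71 with adjusted p = 0.0984 without LTKO GFP replicate 2. With FST288 the difference was 0.48 (95% interval 0.07 to 0.90, adjusted p = 0.157).

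Nr5a2 encodes LRH-1, an activator of bile acid synthesis genes whose activity SHP opposes. Nr5a2 values were 8.36, 8.26 and 8.26 in HFD GFP, 8.17, 8.25 and 8.13 in HFD FST288, 7.85 and 8.05 in LTKO GFP, and 7.89 and 7.84 in LTKO FST288. Each LTKO array lay below each HFD array, by a gap smaller than the range within LTKO GFP. The fall was -0.34 ± 0.09 with GFP (1.27-fold, adjusted p = 0.0217) and -0.32 ± 0.09 with FST288 (1.25-fold, adjusted p = 0.0372). It did not pass with GFP without HFD GFP replicate 1 or LTKO GFP replicate 1 (adjusted p = 0.0726 and 0.191), nor with FST288 without any 1 of 7 arrays, HFD GFP replicates 2 and 3 and all 5 FST288 arrays (adjusted p from 0.0527 to 0.181), nor without both acinar-high arrays (adjusted p = 0.0501 with GFP and 0.326 with FST288). With GFP the call was also lost with no intensity trend (0.0693) and with the 2 groups alone (0.0521). With FST288 it was also lost with the acinar covariate (0.301), the macrophage covariate (0.217), quantile normalization (0.0689), no intensity trend (0.109) and all features tested (0.0837). Nr1h3, which encodes LXR alpha, and Nr1h4, which encodes the bile acid receptor FXR, changed between LTKO and HFD by -0.19 to 0.09, and neither was called.

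Of 6 hormone receptors, 3 fell in LTKO livers in at least 1 comparison. Thrb encodes the main thyroid hormone receptor of hepatocytes. Thrb read 7.17, 6.91 and 6.94 in HFD GFP, 7.10, 7.10 and 6.98 in HFD FST288, 6.24 and 6.25 in LTKO GFP, and 6.22 and 6.19 in LTKO FST288. The 4 LTKO arrays lay within 6.19 to 6.25, far below the 6 HFD arrays. The fall was -0.77 ± 0.11 with GFP, 1.70-fold, adjusted p = 0.000277, and -0.85 ± 0.11 with FST288, 1.80-fold, adjusted p = 0.000124 (limma).

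Nr3c2 encodes the mineralocorticoid receptor, which binds aldosterone and glucocorticoids. Nr3c2 stood at 4.94, 4.90 and 5.15 in HFD GFP, 5.16, 5.20 and 4.91 in HFD FST288, 4.27 and 3.81 in LTKO GFP, and 3.98 and 4.04 in LTKO FST288. No LTKO array reached the lowest HFD array. Nr3c2 fell by a log2 change of -0.95 ± 0.16 with GFP (1.94-fold, adjusted p = 0.00111) and -1.08 ± 0.16 with FST288 (2.12-fold, adjusted p = 0.000429). It is the only member with 2 features: the dimmer changed by -0.12 and -0.21 in these comparisons, and with the mean of both features the fall was -0.54 and -0.64, still called.

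Nr3c1 encodes the glucocorticoid receptor. Nr3c1 was at 7.63, 7.47 and 7.59 in HFD GFP, 7.46, 7.59 and 7.27 in HFD FST288, 7.23 and 7.35 in LTKO GFP, and 6.91 and 7.13 in LTKO FST288. The LTKO and HFD ranges overlapped over all 10 arrays, but neither among the GFP arrays nor among the FST288 arrays. With FST288 Nr3c1 fell by -0.42 ± 0.11 (1.34-fold, adjusted p = 0.0324), a call lost without HFD FST288 replicate 1 or 2 or LTKO FST288 replicate 1 (-0.41, -0.34 and -0.31, with adjusted p = 0.0816, 0.126 and 0.25). Without both acinar-high arrays it was -0.44 with adjusted p = 0.173, and with the macrophage covariate -0.64 with adjusted p = 0.0233. The call was also lost with the acinar covariate (0.228), quantile normalization (0.0569), no intensity trend (0.0714), all features tested (0.0925) and the 2 groups alone (0.0695). With GFP the change was -0.27 (adjusted p = 0.154). Esr1, the estrogen receptor alpha gene, lay at 5.95 to 6.08 on LTKO and 6.14 to 6.43 on HFD arrays without overlap, and its changes of -0.32 and -0.25 were not called (adjusted p = 0.110 and 0.269). The thyroid hormone receptor gene Thra and the vitamin D receptor gene Vdr were not called in either comparison, with changes of 0.38 and 0.46 with GFP and 0.12 and -0.09 with FST288.

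A pair of further members were called in 1 comparison each. Esrrg encodes an orphan estrogen-related receptor that promotes mitochondrial and fasting metabolism. Esrrg values were 3.97, 4.44 and 4.56 in HFD GFP, 4.47, 4.36 and 4.49 in HFD FST288, 4.70 and 4.76 in LTKO GFP, and 4.93 and 5.08 in LTKO FST288. The LTKO arrays lay above all HFD arrays. With FST288 Esrrg rose by 0.57 ± 0.16, 1.48-fold, adjusted p = 0.0426, and this call was lost without any 1 of 8 arrays, all but HFD GFP replicates 1 and 3 (adjusted p from 0.0506 to 0.238), and without both acinar-high arrays (adjusted p = 0.337). It was also lost with the macrophage covariate (0.276), the acinar covariate (0.311), quantile normalization (0.0535) and all features tested (0.112). With GFP the change was 0.41 (adjusted p = 0.136). Nr2f6 encodes an orphan of the COUP-TF group that mostly represses. Nr2f6 read 4.98, 5.17 and 4.74 in HFD GFP, 4.97, 4.73 and 5.09 in HFD FST288, 5.57 and 5.74 in LTKO GFP, and 5.13 and 5.64 in LTKO FST288. The LTKO GFP arrays lay above all HFD arrays, while LTKO FST288 replicate 1 lay inside the HFD range. With GFP Nr2f6 rose by 0.69 ± 0.18, 1.61-fold, adjusted p = 0.0179; without HFD GFP replicate 3, LTKO GFP replicate 1 or LTKO GFP replicate 2 the adjusted p was 0.0695, 0.0531 and 0.129, and with all features tested 0.0599. With FST288 the change was 0.46 (adjusted p = 0.138), and 0.71 with adjusted p = 0.0411 without LTKO FST288 replicate 1.

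**Figure D2:**
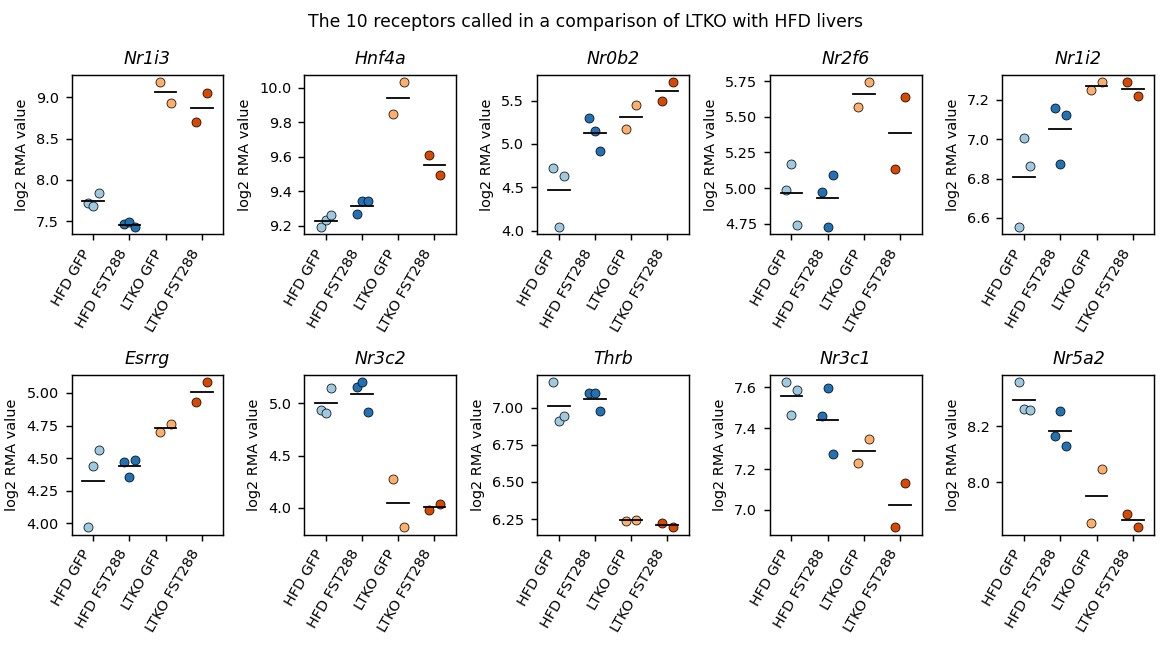
Log2 values of the 10 receptors called in at least 1 LTKO to HFD comparison, 1 panel a gene, with each array as a point by group, the group mean as a horizontal line and a vertical axis of its own in each panel. The 4 LTKO arrays lie above the 6 HFD arrays for Nr1i3, Hnf4a, Nr1i2 and Esrrg and below them for Nr3c2, Thrb and Nr5a2. Of all genes, 13.3% separate in this way in either direction.

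The other role groups gave no call between LTKO and HFD livers. Rxra, the main RXR partner in liver, stayed between 8.07 and 8.25 on all 10 arrays, and its LTKO to HFD changes were 0.10 (95% interval -0.08 to 0.27) with GFP and 0.04 (-0.13 to 0.22) with FST288. Rxrb and Rxrg changed by 0.11 to 0.32. Ppara was at 8.44, 8.29 and 8.29 in HFD GFP, 8.10, 8.16 and 8.07 in HFD FST288, 8.16 and 8.18 in LTKO GFP, and 8.01 and 8.03 in LTKO FST288. The HFD GFP arrays were the highest, and its LTKO to HFD changes were -0.17 (95% interval -0.35 to 0.01) and -0.09 (-0.27 to 0.09). Pparg, best known for fat storage, changed by -0.55 with GFP (adjusted p = 0.109), by -0.73 with adjusted p = 0.0402 without HFD GFP replicate 1, and by 0.23 with FST288 (adjusted p = 0.629). Ppard changed by 0.22 and -0.21. The retinoic acid receptor genes Rara, Rarb and Rarg changed by -0.36 to 0.19. Esrra and Esrrb changed by -0.02 to 0.29.

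The NR4A genes are immediate-early orphans that respond to glucagon-like signals in liver, and none of the 3 was called. Nr4a1 varied most of the 3, at 3.41 and 4.28 in LTKO GFP and 4.06 and 4.86 in LTKO FST288, against 3.83 to 4.37 in HFD livers. Its difference with GFP was -0.34 (adjusted p = 0.461). With FST288 it was 0.57 (adjusted p = 0.215), 0.98 with adjusted p = 0.0449 without LTKO FST288 replicate 1, and 0.17 without the macrophage-high replicate 2. Nr4a2 and Nr4a3 changed by -0.10 to 0.12. Among the other orphans, the COUP-TF gene Nr2f2 changed by 0.32 and 0.39 (adjusted p = 0.177 and 0.112), Rora by -0.22 and 0.18, and Nr2c1, Nr2c2, Nr2f1, Nr6a1 and Nr0b1 by -0.07 to 0.12. Of the 37 members, 7 had means below the median of all named genes (3.13): Nr0b1, Vdr, Nr4a3, Hnf4g, Esrrb, Nr2f1 and Nr4a2; whether these signals exceed background was not tested.

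**Figure D3:**
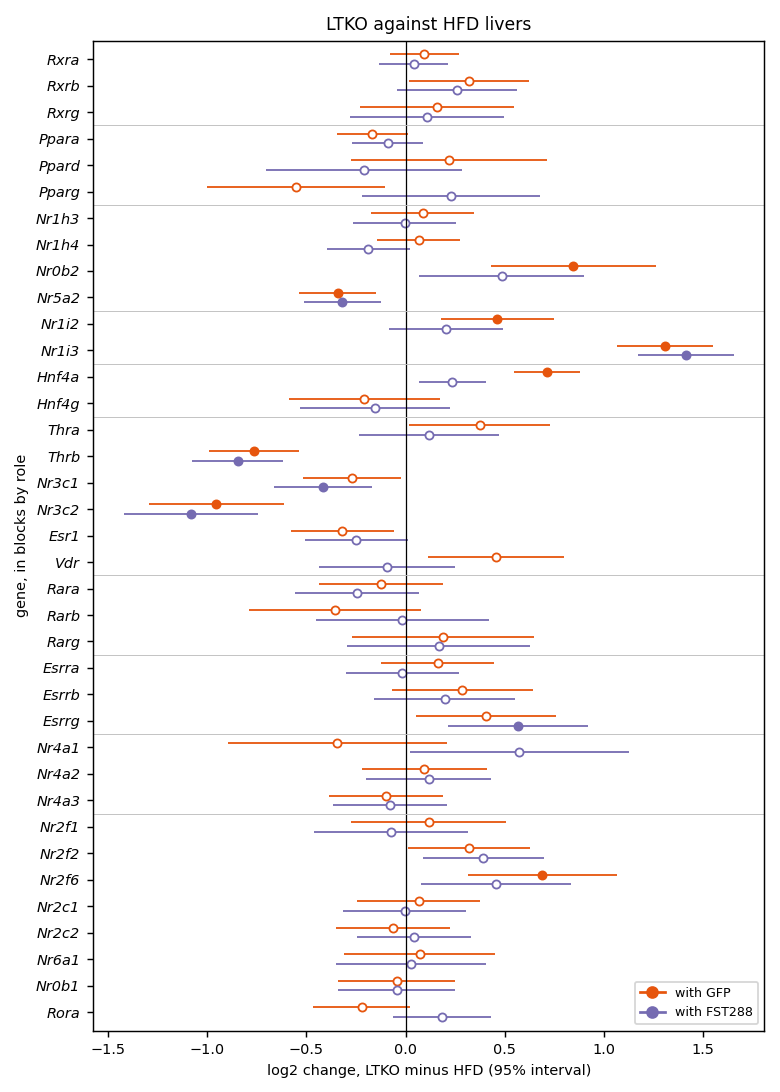
Log2 change of each receptor between LTKO and HFD livers, with GFP in orange and FST288 in purple, in blocks by role; points are fitted changes with 95% intervals and filled points passed an adjusted p of 0.05. Nr1i3 has the largest rise and Nr3c2 the largest fall with both vectors.

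The FST288 vector was then compared with GFP within each background. In HFD livers 0 of 37 members were called, beside 0.996% of all genes. At an unadjusted p below 0.05 there were 8 members, 3 higher and 5 lower, 21.6% beside 12.0% of all genes. The HFD GFP arrays used here are also the control of the LTKO to HFD comparison with GFP, so the signs of the 2 comparisons are not independent. The acinar-high arrays are 2 of the 3 HFD FST288 arrays, so each change named below is also given without both, which leaves 1 HFD FST288 array, and with the acinar covariate.

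Nr0b2 had the largest difference, 0.66 ± 0.17 (95% interval 0.28 to 1.03, adjusted p = 0.108), and all 3 FST288 arrays lay above all 3 GFP arrays. It was 0.84 without both acinar-high arrays and 0.82 with the acinar covariate. Nr1h4 was at 8.64, 8.69 and 8.59 with GFP and 8.86, 8.93 and 8.93 with FST288 in HFD livers. These ranges did not overlap, and the change was 0.26 ± 0.09 (adjusted p = 0.214), or 0.21 and 0.22 without both acinar-high arrays and with the acinar covariate. In LTKO livers Nr1h4 read 8.87 and 8.55 with GFP and 8.65 and 8.78 with FST288, which overlap.

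Nr2f2 encodes COUP-TFII, an orphan that in liver opposes HNF4 alpha and PPAR alpha at shared sites. Nr2f2 was at 5.58, 5.76 and 5.63 with GFP and 5.35, 5.11 and 5.10 with FST288 in HFD livers, and at 5.84 and 6.12 with GFP and 5.40 and 5.75 with FST288 in LTKO livers. In both backgrounds each FST288 array lay below each GFP array. The changes were -0.47 ± 0.13 in HFD (adjusted p = 0.118) and -0.40 in LTKO livers (95% interval -0.74 to -0.06, adjusted p = 0.415), neither of them called. Without both acinar-high arrays and with the acinar covariate the HFD change was -0.31 and -0.31.

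Rora encodes an orphan that activates clock and lipid genes. Rora values in HFD livers were 5.59, 5.79 and 5.77 with GFP and 5.45, 5.30 and 5.37 with FST288, without overlap, and in LTKO livers 5.46 and 5.53 with GFP and 5.54 and 5.57 with FST288. The HFD change was -0.34 ± 0.10 (adjusted p = 0.158), or -0.27 and -0.26 in the same alternatives, and the LTKO change was 0.06. Vdr values in HFD livers were 2.35, 2.25 and 2.08 with GFP and 2.51, 2.83 and 2.74 with FST288, and in LTKO livers 2.78 and 2.59 with GFP and 2.43 and 2.77 with FST288. The HFD ranges did not overlap, the change was 0.46 ± 0.14 (adjusted p = 0.174), falling to 0.28 without both acinar-high arrays and 0.27 with the acinar covariate, and the gene is among the dim ones named above. Ppara, whose arrays are given above, changed by -0.23 ± 0.07 in HFD livers (adjusted p = 0.205), or -0.24 and -0.25 in those alternatives, and -0.15 in LTKO livers. The remaining members at an unadjusted p below 0.05 were Nr1i3, at -0.29 (adjusted p = 0.238), or -0.28 in both alternatives, and Pparg, at -0.52 (adjusted p = 0.260), or -0.49 and -0.47.

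In LTKO livers 0 of 37 members were called with FST288, beside 0.167% of all genes, and 3 had an unadjusted p below 0.05 (8.11% beside 9.98% of all genes). Hnf4a had the smallest p: both FST288 arrays lay below both GFP arrays, a change of -0.39 ± 0.09 (95% interval -0.57 to -0.20, adjusted p = 0.138 in limma). The other 2 were Nr2f2, above, and Nr4a1, at 0.62 (adjusted p = 0.494), whose GFP and FST288 arrays overlapped. The LTKO FST288 array with high macrophage markers gave the lower of the Hnf4a values and the higher of the Nr4a1 values in its group. Without that array the Hnf4a change was -0.33 and the Nr4a1 change 0.21, and with the macrophage covariate they were -0.34 and 0.17.

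The difference of the FST288 effect between LTKO and HFD livers was tested as an interaction in the same limma fit. It called 0 of 37 members, beside 0.216% of all genes, and 5 members had an unadjusted p below 0.05 (13.5% beside 12.6%). For Hnf4a the difference was -0.48 ± 0.11 (95% interval -0.72 to -0.24, adjusted p = 0.106). For Nr4a1 it was 0.92 (adjusted p = 0.319), for Pparg 0.78 (adjusted p = 0.303), for Vdr -0.55 (adjusted p = 0.339) and for Rora 0.41 (adjusted p = 0.323). With the macrophage covariate the Nr4a1 and Pparg differences were 0.41 and 0.56, and without both acinar-high arrays the Vdr difference was -0.36. No receptor was thus shown to respond differently to FST288 in the 2 backgrounds, and intervals of this width do not show equal responses either.

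**Figure D4:**
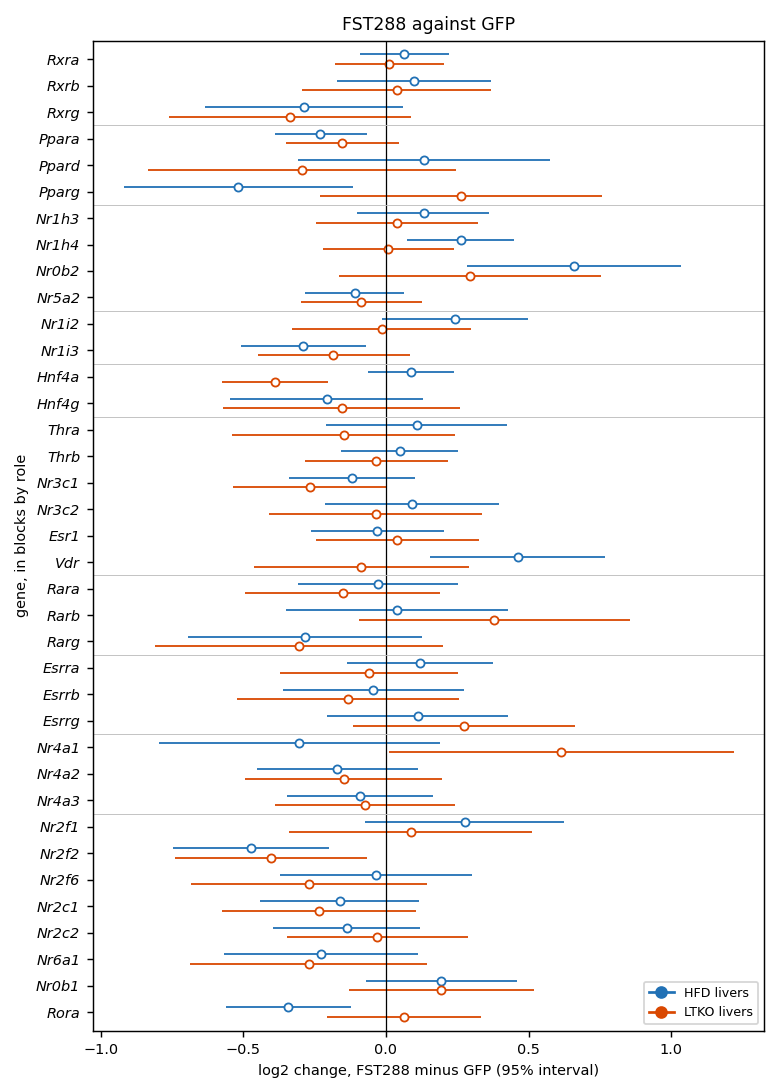
Log2 change with the FST288 vector against GFP for each of the 37 receptors, in HFD livers (blue) and LTKO livers (orange), with 95% intervals; no point passed an adjusted p of 0.05, so all are open. The HFD intervals farthest from 0 are those of Nr0b2, Nr2f2 and Vdr, and the LTKO interval farthest from 0 is that of Hnf4a.

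The partners of these receptors and their target genes were described by counts from lists of textbook members, several of which sit on more than 1 list. The lists were chosen with earlier results of these data known. Their counts are therefore descriptions, and no list was tested as a set against all genes. Without both acinar-high arrays, 6 genes in all were called with FST288 against GFP in HFD livers, and none of the list genes named below for that comparison passed. Of 8 other measured nuclear receptors, Nr1d1 and Nr1d2, the REV-ERB repressors of the clock, fell in LTKO livers, by log2 changes of -1.67 and -1.99 with GFP and -1.13 and -1.75 with FST288. Of 13 coactivators with GFP, Ppargc1a (-0.70), the partner that drives fasting gluconeogenesis and oxidation, Kat2b (-0.49) and Ncoa4 (-0.46) fell and Carm1 (0.39) rose, and with FST288 Ncoa4 (-0.48) alone passed. Without both acinar-high arrays Carm1 with GFP and Ncoa4 with FST288 were not called (adjusted p = 0.0655 and 0.225), nor was Ncoa4 with the acinar or macrophage covariate (0.163 and 0.0751). Of 10 corepressors with GFP, Ctbp1 rose (0.57) and Tbl1xr1 fell (-0.40), and with FST288 Nrip1 rose (1.06); Tbl1xr1 was not called without both acinar-high arrays (adjusted p = 0.0604). These shares, 4 of 13 and 2 of 10 with GFP, stand beside the 13.1% of all genes given above. For the lists that follow, 6.69% of all genes were called higher and 6.4% lower in LTKO than HFD livers with GFP. With the FST288 vector these shares were 5.05% and 5.29%. FST288 against GFP called 0.996% of all genes in HFD livers and 0.167% in LTKO livers.

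PPAR alpha targets moved while Ppara itself was not called. Of 15 measured targets, 12 rose and the other 3 were not called in LTKO livers with GFP, with a median change of 1.02 against 0.01 over all genes, and 12 rose with FST288 (median 1.12), the rest again uncalled. With FST288 11 rose without both acinar-high arrays, and with the macrophage covariate 10. Cyp4a14, a fatty acid hydroxylase, rose by 5.54 with GFP and 4.98 with FST288, Acot1, an acyl-CoA thioesterase, by 3.86 and 3.55, Pdk4, which blocks pyruvate oxidation, by 3.67 and 4.22, and Ehhadh, a peroxisomal oxidation enzyme, by 3.08 and 3.10. Plin2, a lipid droplet coat protein, rose by 1.02 and 1.12. With FST288 against GFP, Cyp4a14 (0.63) and Angptl4 (0.51) were called higher in HFD livers and Acaa1b (0.68) in LTKO livers. None of these passed without both acinar-high arrays (0.41, 0.54 and 0.68, adjusted p = 0.569, 0.440 and 0.0827), and with the acinar covariate the HFD calls were lost (0.38 and 0.52).

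CAR and PXR targets, beside the rise of Nr1i3, went both ways. Of 16 measured, 7 rose and 2 fell in LTKO livers with GFP (median 0.25), and 8 rose and 3 fell with FST288 (median 0.41), or 7 and 1 without both acinar-high arrays. The drug-metabolising cytochrome Cyp3a11 rose by 1.88 and 2.52, Cyp3a25 by 2.56 and 2.54, the carboxylesterase Ces2a by 1.51 and 1.19, and the uptake transporter Slco1a4 by 1.44 and 1.78. Alas1, the first enzyme of haem synthesis, fell by 1.59 on the log2 scale with GFP, and Cyp3a13 fell by 2.15 with FST288. With FST288 against GFP, Cyp3a11 (-0.84) and Abcc3 (-0.96) were called lower and Cyp2c29 (0.53) higher in HFD livers. None of the 3 passed without both acinar-high arrays (-0.81, -0.72 and 0.58, adjusted p = 0.0743, 0.321 and 0.0743), and with the acinar covariate Abcc3 did not (adjusted p = 0.207). Cyp3a13 was lower (-1.52) in LTKO livers, unchanged in size without both acinar-high arrays, and passed with the acinar and the macrophage covariate. Its FST288 effect also differed between LTKO and HFD livers (-1.91, adjusted p = 0.00034, limma interaction), by -1.82 without both acinar-high arrays. That interaction was called for the PPAR alpha target Acaa1b too (0.96, adjusted p = 0.0104), but not with the acinar covariate (0.925, adjusted p = 0.0952).

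HNF4A targets, beside the rise of Hnf4a with GFP, were lower more often than higher. Of 17 measured, 1 rose and 9 fell with GFP (median -0.32), and 1 rose and 9 fell with FST288 (median -0.33), where 5 fell without both acinar-high arrays or with the acinar covariate, and 6 with the macrophage covariate. Slc2a2, the hepatocyte glucose transporter, fell by 1.55 and 1.45 on the log2 scale, the apolipoprotein Apoa4 by 2.14 and 1.30, and the urea cycle enzyme Otc by 0.59 and 0.71. Cyp8b1, the sterol 12-alpha-hydroxylase, rose by 0.76 and 1.23. With FST288 against GFP in HFD livers, Mttp (0.48) and F9 (0.30) were called higher and Cyp8b1 (-0.54), Ttr (-0.39) and Apoa1 (-0.40) lower. None of these 5 passed without both acinar-high arrays (adjusted p from 0.205 to 0.685) or with the acinar covariate (0.0988 to 0.496). Hepatocyte marker medians were 12.2 to 12.4 on HFD and 11.6 to 11.9 on LTKO arrays, and their part in these values was not tested. Ttr, Apoa1, Apob and Tat are on both lists, so the marker medians are not a separate measure.

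LXR targets were mostly lower in LTKO livers with GFP, with Nr1h3 not called: of 11, 1 rose and 6 fell (median -0.54). With FST288 1 rose and 4 fell (median -0.03), or 0 and 2 without both acinar-high arrays and 0 and 3 with the macrophage covariate. The members that fell most are lipogenic, Fasn (-2.70 with GFP and -2.01 with FST288), Scd1 (-1.95 and -2.45) and Srebf1 (-1.72 and -0.71); Srebf1 with FST288 was not called without both acinar-high arrays (adjusted p = 0.0748) or with the macrophage covariate (0.139). With FST288 against GFP, Srebf1 (-1.17) and Pltp (-0.63) were called lower in HFD livers, and neither passed without both acinar-high arrays (-1.08 and -0.27, adjusted p = 0.150 and 0.904) or with the acinar covariate (0.0891 and 0.808). In LTKO livers Abcg8 (-0.68) and Scd1 (-0.55) were called lower, and 0 of the list passed with quantile normalization, without both acinar-high arrays or with the macrophage covariate. FXR targets showed no common direction, with 3 of 10 higher and 4 lower with each vector; with GFP 2 were lower, and with FST288 2 were higher and 2 lower, without both acinar-high arrays, and 2 were lower with FST288 and the macrophage covariate. This list joins genes that FXR induces with bile acid synthesis genes, which SHP represses, so 1 shared direction was not to be expected. Of the list, Cyp7a1, the rate-limiting enzyme of bile acid synthesis, fell (-0.71) with GFP, and the bile salt export pump Abcb11 fell (-0.88) with FST288. Abcb11 was called higher with FST288 against GFP in HFD livers (0.42), a call lost without both acinar-high arrays (0.34, adjusted p = 0.753), with the acinar covariate (0.35, adjusted p = 0.572) and with quantile normalization.

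Targets of the hormone receptors were also split. Of 10 thyroid hormone receptor targets, beside the fall of Thrb, 1 rose and 3 fell with GFP and 2 rose and 3 fell with FST288, or 0 and 2 without both acinar-high arrays; the largest falls were in the lipogenic genes Thrsp (-4.87 and -5.14) and Me1 (-1.37 and -1.71), and Dio1, the hepatic deiodinase, changed by -0.87 and -0.89, the latter not called without both acinar-high arrays (adjusted p = 0.168) or with the acinar covariate (0.138). Of 17 glucocorticoid receptor targets, 3 rose and 7 fell with GFP and 5 rose and 5 fell with FST288. The FST288 counts were 4 and 4 with the acinar covariate and also with the macrophage covariate. Lpin1 (-4.33 and -4.78) was lowest and the metallothionein Mt2 (1.83 and 2.01) was higher. This list too was chosen with earlier results of these data known, so its share of calls is no measure of enrichment. With FST288 against GFP in HFD livers 4 of the 17 were called higher, beside 0.996% of all genes: Zbtb16 (1.45), Cdkn1a (1.27), Lpin1 (0.86) and Angptl4 (0.51). None of the 4 passed without both acinar-high arrays (1.68, 1.28, 1.14 and 0.54, adjusted p = 0.0743, 0.651, 0.0743 and 0.440), and with the acinar covariate Zbtb16 and Lpin1 passed. Nr3c1 changed by -0.12 there. Of 7 retinoic acid receptor targets, Dhrs3 (0.80), Cyp26a1 (0.79) and Tgm2 (0.51) rose with GFP, and Tgm2 (0.69) rose with FST288, which did not pass with the macrophage covariate (0.54, adjusted p = 0.0835).

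**Figure D5:**
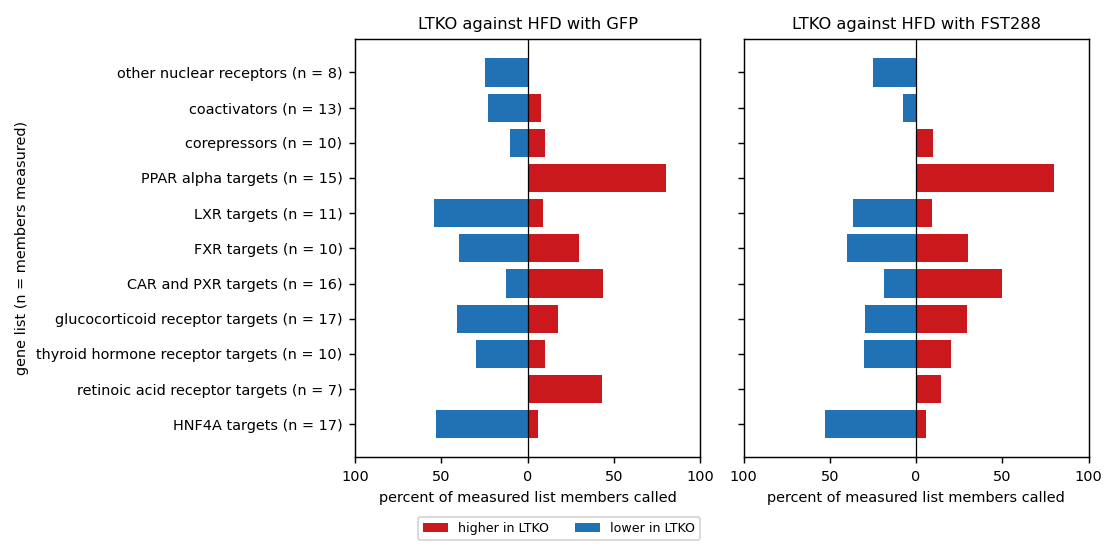
Percent of the measured members of each list that were called higher (red, right) or lower (blue, left) in LTKO than HFD livers, with GFP in the left panel and FST288 in the right. The longest bars are the PPAR alpha targets, with 12 of 15 higher in each panel, and the HNF4A targets extend mainly to the lower side, with 9 of 17. Of all genes, 6.69% were called higher and 6.4% lower with GFP, and 5.05% and 5.29% with FST288.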

How the data were processed

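Total RNA was measured on 10 Affymetrix arrays. The authors deposited log2 values, made with RMA in Affymetrix Expression Console per the submitters' processing notes, with the version not given in the sources used here. The log base follows from the range of the values (0.64 to 13.21). Features were named from the platform annotation: 23521 of 41345 had 1 symbol, 1814 several and 16010 none, and the brightest feature stood for each of 22180 genes. Group means were estimated jointly from the 10 arrays (limma 3.58.1, R 4.3.3, eBayes with an intensity trend, 6 residual and 7.155 prior degrees of freedom), with Benjamini-Hochberg adjustment over all genes and calls at an adjusted p below 0.05. The code was tested on simulated data. Groups of 2 or 3 arrays limit the precision. The receptors and the gene lists were chosen with earlier results of these data known. Each array is described for receptors called in any comparison or with an unadjusted p below 0.01, and at most 6 called genes are named per list. Alternatives were another feature rule, quantile normalization, no trend, a filter on dim genes, all features, another threshold, fewer groups, a replicate block and each array left out. Promoter windows are from RefSeq.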

Additional observations from a re-analysis of the deposited data

How the results depend on the processing

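Of 14 called receptor changes between LTKO and HFD livers, 7 passed under all 21 alternatives: those of Nr1i3, Thrb and Nr3c2 with both vectors and of Hnf4a with GFP. The count of called receptors with GFP, 8, ranged from 5 to 8 when 1 array was left out, with 5 without either LTKO GFP array. With FST288 the count, 6, ranged from 3 to 6, with 3 without HFD FST288 replicate 1 or 2. It was also 3 with all features tested, 3 with the acinar marker level as a covariate and 3 without both acinar-high arrays; these last 2 and a macrophage covariate were chosen after seeing the data. Hnf4a with FST288 passed in 3 alternatives. None of the 14 called changes reversed, while some uncalled ones changed sign (Ppard with FST288 in HFD livers went from 0.13 to -0.13). FST288 against GFP called 0 receptors in either background under each alternative.

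Counts over all genes moved more. FST288 against GFP called 221 genes in HFD livers (6 without both acinar-high arrays, 411 with these groups alone) and 37 in LTKO livers (0 with these groups alone, 237 without LTKO FST288 replicate 1), and the difference of effects called 48 (1 without both acinar-high arrays, 266 without LTKO FST288 replicate 1). LTKO against HFD called 2902 genes with GFP (1870 without LTKO GFP replicate 1) and 2293 with FST288 (939 without both acinar-high arrays, 1135 with the acinar covariate and 1178 with the macrophage covariate). Arrays sharing a replicate number did not deviate together (correlations from -0.07 to 0.01), so no pairing by number was seen. With 2 arrays a group the LTKO correlations are a single value, and groups this small cannot exclude a pairing. With a replicate block 7 and 5 receptors were called between LTKO and HFD livers with GFP and FST288. Nr1i2 with GFP and Nr5a2 with FST288 lost their calls. FST288 against GFP called 0 receptors with that block.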
